A study of Mus musculus with 2 samples.

Results

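The cadherin switch is described here through 6 adhesion genes, Cdh1, Epcam, Cdh3, Cdh2, Cdh11 and Cdh13, chosen by gene symbol out of the 32285 genes listed in the files; all 6 were found. They were measured by single-cell RNA sequencing in 2 libraries of mouse somitic gastruloids, cultured stem cell aggregates that build tissues resembling those of the early embryo. The dTAG-13 library came from gastruloids given 100 nM dTAG-13 at 72 and again at 96 h, and the untreated library from gastruloids without it. Both libraries came from the E14 triple-reporter embryonic stem cell line with an endogenous Zeb2-HA-FKBP12F36V degron tag, so the untreated cells carry the tag as well. dTAG-13 is a small molecule that directs a tagged protein to degradation, here Zeb2, a zinc-finger repressor of Cdh1. The control is named untreated in the labels and DMSO in the series text, and untreated is used here. In both groups aggregates of 300 sorted cells received 3 µM CHIR99021, a WNT pathway activator, after 48 h and 10% Matrigel at 96 h. About 32 gastruloids were pooled for each library, live cells were sorted with a dead-cell dye and 10000 cells were loaded. There was 1 library per group from 1 cell line, and whether that line is a single clone, and the hour of harvest, are not given in the sources used here.

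Classical cadherins hold neighbouring cells together by binding the same cadherin on the next cell, and their cytoplasmic tails bind catenins that link them to actin. In the embryo, epithelial cells that become mesoderm lose E-cadherin (Cdh1) and gain N-cadherin (Cdh2), a switch that takes place at the primitive streak and that the repressors Snail and ZEB are known to drive. Epcam is an adhesion protein of epithelia outside the cadherin family. Cdh3 encodes P-cadherin of basal epithelia and placenta. Cdh11 encodes a cadherin of mesenchyme, and Cdh13 encodes T-cadherin, which lacks the cytoplasmic tail.

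Kept cells numbered 6688 in the dTAG-13 library and 6231 in the untreated library, with a median of 20207 UMIs and 20073 UMIs per cell. A UMI (unique molecular identifier) stands for 1 captured RNA molecule. Levels are UMIs of a gene per 1000000 UMIs of the cells counted (CPM). The 3' kit tags the end of each transcript, so these levels hold no factor of transcript length. With 1 library per group no difference has a replicate check and no test was made. Intervals are 95% exact intervals of counting error only. The libraries shared 10 barcodes among kept cells. The Zeb2 transcript stood at 94.6 CPM in the dTAG-13 library and 67.9 CPM in the untreated library, and it does not check the labels because dTAG-13 acts on the protein.

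Over whole libraries Cdh1 and Epcam were higher and Cdh2 and Cdh11 lower in the dTAG-13 library. Cdh1 (ENSMUSG00000000303, chromosome 8, 106603351 to 106670246, plus strand, GRCm38) stood at 47.4 CPM with dTAG-13 (46.3 to 48.5) and 18.8 CPM untreated (18.1 to 19.5), a CPM ratio of 2.52 (2.41 to 2.63). Epcam (ENSMUSG00000045394, chromosome 17, 87635979 to 87651129, plus strand) stood at 509.8 CPM with dTAG-13 (506 to 513) and 209 CPM untreated (207 to 211), a ratio of 2.44 (2.41 to 2.47). Cdh1 and Epcam thus differed by nearly the same factor, although Epcam was the more abundant transcript by far in both libraries. Cdh2 (ENSMUSG00000024304, chromosome 18, 16588877 to 16809246, minus strand) went the other way, at 55.5 CPM with dTAG-13 (54.3 to 56.7) and 87.9 CPM untreated (86.4 to 89.5), a ratio of 0.631 (0.614 to 0.649). Cdh11 (ENSMUSG00000031673, chromosome 8, 102632095 to 102785642, minus strand) was also lower, at 13.03 CPM with dTAG-13 (12.5 to 13.6) and 19.0 CPM untreated (18.3 to 19.8), a ratio of 0.684 (0.645 to 0.726). Cdh2 therefore exceeded Cdh1 in both libraries, by a small margin with dTAG-13 and by a wide margin without it. In a whole library, more cells with a transcript and more of it per cell cannot be told apart.

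The remaining members were at low levels. Cdh13 (ENSMUSG00000031841, chromosome 8, 118283733 to 119324921, plus strand) stood at 12.9 CPM with dTAG-13 (12.3 to 13.5) and 5.56 CPM untreated (5.18 to 5.97), a ratio of 2.32 (2.13 to 2.52). Cdh3 (ENSMUSG00000061048, chromosome 8, 106510891 to 106557297, plus strand) ends 46053 bases before Cdh1 on the same strand. It was the lowest member, with 334 UMIs or 2.20 CPM with dTAG-13 and 206 UMIs or 1.47 CPM untreated, a ratio of 1.50 (1.26 to 1.79). Although it neighbours Cdh1, its ratio interval lay below that of Cdh1.

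With a prior of 1 CPM added to both levels, the log2 ratios of dTAG-13 over untreated were 1.29 for Cdh1, 1.28 for Epcam, 1.08 for Cdh13, 0.37 for Cdh3, -0.51 for Cdh11 and -0.65 for Cdh2. The prior pulls ratios of low genes towards 0 on the log2 scale. On this scale 3 of the 6 members (Cdh1, Epcam and Cdh13) were at least 1.5-fold higher with dTAG-13, against 2.32% of the 19470 genes with at least 10 UMIs. Cdh2 was the only member at least 1.5-fold lower, against 0.832% of those genes. Cdh1 ranked 42 and Epcam 43 of the 19470 genes from the highest ratio, and Cdh13 ranked 85. The median of all these genes was 0.02.

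**Figure D1:**
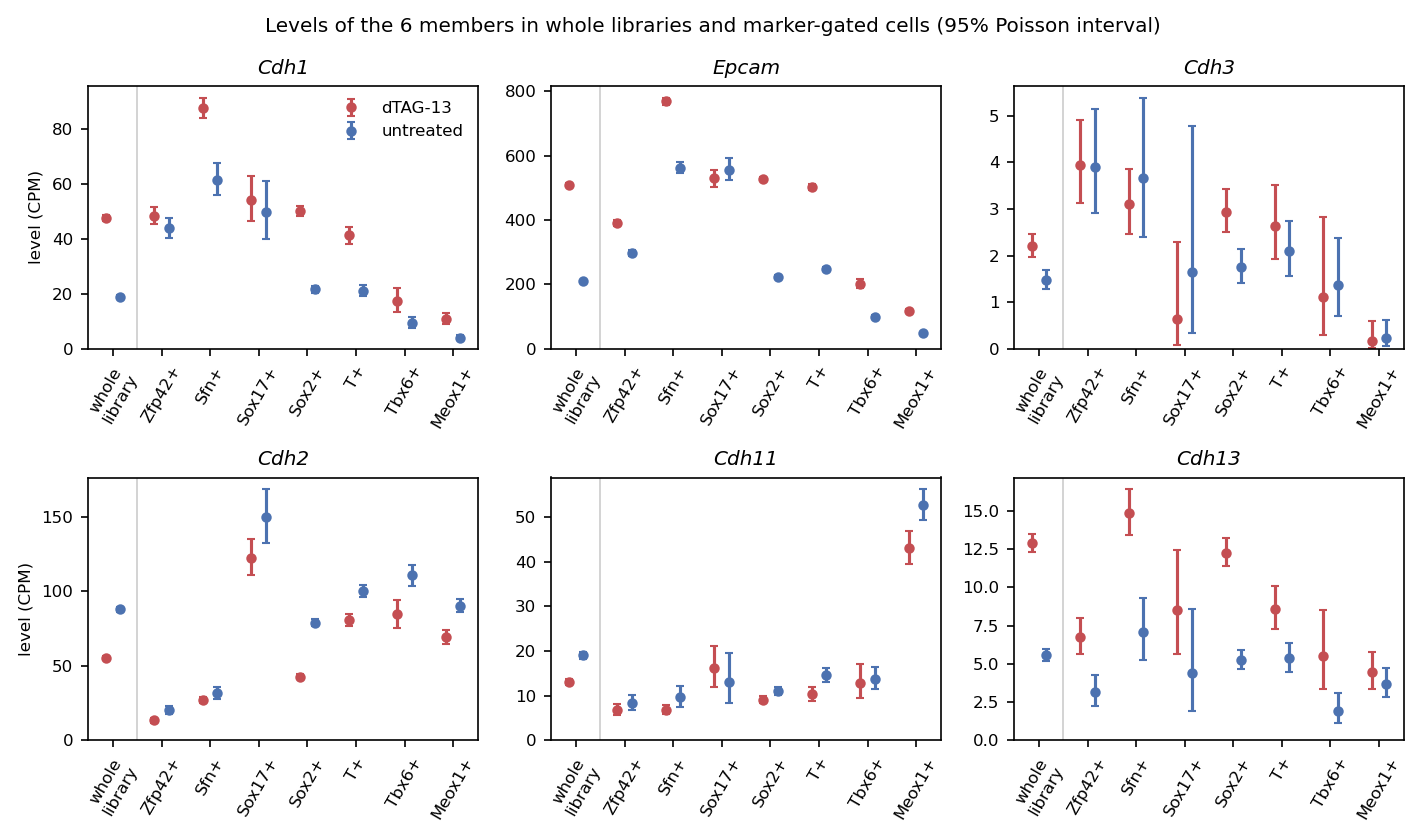
Levels in CPM (vertical axes, linear from 0) of the 6 members in whole libraries and in cells with a UMI of each marker gene, for dTAG-13 (red, left) and untreated (blue, right) libraries; bars are 95% Poisson intervals. Cdh1 and Epcam lie higher with dTAG-13 in Sox2+, T+, Tbx6+ and Meox1+ cells and the libraries lie close together in Sox17+ cells, where Epcam stood at 529 CPM with dTAG-13 and 556 CPM untreated.

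To place the members in cell populations, cells were thinned to 5000 UMIs each and gated on at least 1 UMI of a marker gene, and levels were then taken from all UMIs of the gated cells. The pluripotency gene Zfp42 gated 738 dTAG-13 and 507 untreated cells. The epithelial 14-3-3 gene Sfn gated 1100 dTAG-13 cells (16.6%) and 297 untreated cells (4.83%), and the endoderm gene Sox17 gated 127 dTAG-13 and 85 untreated cells. The stem and neural progenitor gene Sox2 gated 2337 dTAG-13 and 2301 untreated cells. Among mesodermal markers the numbers were lower with dTAG-13. The tail bud and streak gene T gated 808 dTAG-13 and 1124 untreated cells, the presomitic mesoderm gene Tbx6 gated 148 dTAG-13 and 408 untreated cells, and the somite gene Meox1 gated 523 dTAG-13 and 752 untreated cells. Gates can share cells: 19.9% of dTAG-13 and 18.1% of untreated cells passed at least 2 of the 7, and 35.1% of dTAG-13 and 31.2% of untreated cells passed none.

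The gates were checked against other markers of the cell type each gene is known for. All 6 other pluripotent markers were at least 2-fold higher in Zfp42+ cells than in the remaining cells of both libraries together, as were all 6 other somite markers in Meox1+ cells. The count was 5 of 6 for non-neural ectoderm markers in Sfn+ cells and 5 of 7 for endoderm markers in Sox17+ cells. It was 4 of 6 for tail bud markers in T+ cells and 4 of 6 for presomitic mesoderm markers in Tbx6+ cells. In Sox2+ cells no other neural marker (0 of 6) and all 7 pluripotent markers passed, so Sox2+ cells are called by the gene alone. Zfp42 was detected as well in 506 dTAG-13 and 357 untreated Sox2+ cells.

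Cdh1, which encodes E-cadherin, was highest in Sfn+ cells of both libraries, at 87.5 CPM with dTAG-13 (83.9 to 91.1) and 61.4 CPM untreated (55.7 to 67.4). It was lowest in Meox1+ cells, at 10.9 CPM with dTAG-13 (9.14 to 12.9) and 3.85 CPM untreated (2.97 to 4.91). In the untreated library the order was Sfn+, Sox17+ and Zfp42+, then Sox2+ and T+, then Tbx6+ and Meox1+. The intervals of Sfn+ and Sox17+ cells overlapped there, as did those of Sox17+ and Zfp42+ and those of Sox2+ and T+ cells. With dTAG-13 the intervals of Sox17+, Sox2+ and Zfp42+ cells overlapped in order below Sfn+, so that Sox2+ cells held the same rank as gates with high Cdh1.

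Between libraries Cdh1 differed by gate. In Zfp42+ cells it stood at 48.4 CPM with dTAG-13 and 44.0 CPM untreated, a CPM ratio of 1.10 (0.993 to 1.22), and in Sox17+ cells at 54.1 CPM with dTAG-13 and 49.7 CPM untreated, a ratio of 1.09 (0.839 to 1.42). In neither gate was a difference detectable at this depth with these gates. With Zfp42 gated without thinning the log2 ratio was 0.47, against 0.14, and with at least 2 Sox17 UMIs as the gate the log2 ratio in Sox17+ cells was -0.42, against 0.12 with 1 UMI. In Sfn+ cells the ratio was 1.43 (1.29 to 1.58). The ratios were larger in gates that hold little Cdh1 in the untreated library: 2.31 in Sox2+ cells (2.16 to 2.48), with 49.9 CPM with dTAG-13 and 21.6 CPM untreated. T+ cells gave 1.95 (1.74 to 2.19), with 41.2 CPM with dTAG-13 and 21.1 CPM untreated, and Tbx6+ cells 1.86 (1.32 to 2.61), with 17.3 CPM with dTAG-13 and 9.32 CPM untreated. Gated on at least 2 Tbx6 UMIs, the log2 ratio of Cdh1 was 2.03, against 0.83 with 1 UMI. In Meox1+ cells the ratio was 2.83 (2.09 to 3.87), on 135 UMIs with dTAG-13 and 65 UMIs untreated, a level at which cells with Cdh1 and free RNA cannot be told apart. The Cdh1 intervals lay above 1 in 5 of the 7 gates, and in 4 of 6 leaving Meox1+ cells aside.

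Epcam followed a similar order at higher levels, with Sfn+ cells first and Tbx6+ and Meox1+ cells last in both libraries. In Sfn+ cells it stood at 769 CPM with dTAG-13 (758 to 780) and 562 CPM untreated (545 to 580.1), a CPM ratio of 1.37 (1.32 to 1.41). In Meox1+ cells it stood at 116 CPM with dTAG-13 (110.1 to 122) and 47.3 CPM untreated (44.1 to 50.7), a ratio of 2.45 (2.25 to 2.68). Somite cells thus held less Epcam than each other gate in both libraries. Sox2+ cells held 529 CPM with dTAG-13 and 224 CPM untreated (ratio 2.36, 2.31 to 2.41), and T+ cells 502 CPM with dTAG-13 and 247 CPM untreated (2.03, 1.96 to 2.10). Tbx6+ cells held 201 CPM with dTAG-13 and 97.1 CPM untreated (2.07, 1.88 to 2.29), and Zfp42+ cells 390.3 CPM with dTAG-13 and 298 CPM untreated (1.31, 1.26 to 1.36). In Sox17+ cells Epcam stood at 529 CPM with dTAG-13 and 556 CPM untreated (0.951, 0.879 to 1.03). Its direction there depends on the gate, with a ratio of 1.15 (1.04 to 1.26) in cells that passed the Sox17 gate only and a log2 ratio of -0.32 with at least 2 Sox17 UMIs.

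ZEB and Snail repressors are known to bind E-boxes, short motifs with the letters CACCTG or, read on the other strand, CAGGTG. The promoter of Epcam is shown because Epcam and Cdh1 ran parallel in these cells and Epcam is the 1 of the 6 members matched in the RefSeq promoter table used here. It holds the 250 bases before the RefSeq start of the gene (GRCm38.p6, chr17:87635729-87635978, plus strand), with motif matches in capitals.
Epcam: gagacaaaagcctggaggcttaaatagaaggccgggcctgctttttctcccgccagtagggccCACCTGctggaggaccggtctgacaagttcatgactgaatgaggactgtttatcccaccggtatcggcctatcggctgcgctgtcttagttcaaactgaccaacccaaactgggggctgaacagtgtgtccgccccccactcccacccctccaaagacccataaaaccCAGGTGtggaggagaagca
A search for CACCTG on either strand found 2 matches. The first, CACCTG, lies 187 to 182 bases before the start, and the second, CAGGTG, lies 19 to 14 bases before it. Of 32851 RefSeq promoters of the same length, 17.2% hold at least 1 match and 2.06% hold at least 2. A match describes the letters in this window and not a bound site, and no binding was measured here.

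Cdh3, the P-cadherin gene, was at most a few CPM in each gate. It was highest in Zfp42+ cells, at 3.94 CPM with dTAG-13 (3.12 to 4.92) and 3.91 CPM untreated (2.91 to 5.14). Sox2+ cells were the gate in which its interval excluded 1, at 2.93 CPM with dTAG-13 and 1.75 CPM untreated, a ratio of 1.68 (1.30 to 2.19). In Meox1+ cells it had 2 UMIs with dTAG-13 and 4 UMIs untreated, and in Sox17+ cells 2 UMIs with dTAG-13 and 3 UMIs untreated. In gates other than Sox2+ no difference in Cdh3 was detectable at this depth.

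Cdh2, which encodes N-cadherin, had nearly the reverse order, with Sox17+ cells as the exception. It was lowest in Zfp42+ cells, at 13.2 CPM with dTAG-13 (11.7 to 14.9) and 20.1 CPM untreated (17.7 to 22.7), and next lowest in Sfn+ cells, at 27.0 CPM with dTAG-13 (25.1 to 29.1) and 31.5 CPM untreated (27.5 to 35.9). Sox17+ cells held the most, at 123 CPM with dTAG-13 (111 to 135) and 149.8 CPM untreated (133 to 169). Endoderm cells thus combined the highest Cdh2 of the gates with high Cdh1 and Epcam. Tbx6+ cells (84.4 CPM with dTAG-13 and 111 CPM untreated) and T+ cells (80.7 CPM with dTAG-13 and 100.4 CPM untreated) followed, with overlapping intervals in each library. Meox1+ cells held 69.4 CPM with dTAG-13 and 90.4 CPM untreated.

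Cdh2 was lower with dTAG-13 in each gate. Its interval excluded 1 in 6 of the 7 gates, and in 5 of 6 leaving Zfp42+ cells aside. The ratio was lowest in Sox2+ cells, at 0.542 (0.515 to 0.570), with 42.7 CPM with dTAG-13 and 78.9 CPM untreated. In Zfp42+ cells it was 0.658 (0.553 to 0.784), at a level at which cells with Cdh2 and free RNA cannot be told apart. It was 0.763 in Tbx6+ cells (0.669 to 0.868), 0.768 in Meox1+ cells (0.706 to 0.836) and 0.804 in T+ cells (0.752 to 0.859). In Sox17+ cells it was 0.818 (0.699 to 0.959). In Sfn+ cells it was 0.860 (0.738 to 1.00), with an interval that included 1, while in cells that passed the Sfn gate only it was 0.677 (0.542 to 0.852). Gated on at least 2 Sox17 UMIs, the Cdh2 log2 ratio in Sox17+ cells turned to 0.14, against -0.29 with the gate of 1 UMI, so its direction in endoderm depends on the gate.

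Cdh11, the mesenchymal cadherin gene, was concentrated in Meox1+ cells, at 43.2 CPM with dTAG-13 (39.6 to 47.0) and 52.8 CPM untreated (49.4 to 56.4). In the other gates it ranged between 6.83 and 16.1 CPM with dTAG-13 and between 8.36 and 14.5 CPM untreated. Somite cells therefore held the most Cdh11 and the least Cdh1 and Epcam of the gates. Their Cdh2 lay below that of Sox17+, Tbx6+ and T+ cells in both libraries. The CPM ratio was 0.818 in Meox1+ cells (0.734 to 0.912), 0.712 in T+ cells (0.591 to 0.855), 0.712 in Sfn+ cells (0.535 to 0.956) and 0.816 in Sox2+ cells (0.724 to 0.9201). Its intervals included 1 in Zfp42+, Sox17+ and Tbx6+ cells. In cells that passed the Zfp42 gate only, Cdh11 stood at 5.29 CPM with dTAG-13 and 13.07 CPM untreated, on 20 UMIs with dTAG-13 and 28 UMIs untreated, a ratio of 0.404 (0.216 to 0.744). In cells that passed the Tbx6 gate only its log2 ratio was -0.89, against -0.08 in all Tbx6+ cells.

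Cdh13, the T-cadherin gene, had its highest gate level in Sfn+ cells with dTAG-13, at 14.9 CPM with dTAG-13 (13.4 to 16.4) and 7.05 CPM untreated (5.23 to 9.30). It was higher with dTAG-13 in 5 of the 7 gates by its interval. The ratio was 2.34 in Sox2+ cells (2.04 to 2.70), 2.14 in Zfp42+ cells (1.50 to 3.12), 2.11 in Sfn+ cells (1.57 to 2.89), 1.60 in T+ cells (1.26 to 2.04) and 2.85 in Tbx6+ cells (1.42 to 5.79). With this gate the intervals of Cdh13 and of Epcam (1.26 to 1.36) lay above 1 in Zfp42+ cells, while that of Cdh1 (0.993 to 1.22) included 1. The Tbx6+ value rests on 20 UMIs with dTAG-13 and 17 UMIs untreated, and gated on at least 2 Tbx6 UMIs its log2 ratio was -0.21, against 1.15 with the gate of 1 UMI. In Meox1+ cells the ratio was 1.21 (0.826 to 1.77). In Sox17+ cells it was 1.96 (0.864 to 4.98), on 27 UMIs with dTAG-13 and 8 UMIs untreated. The intervals of these gates included 1.

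Counted by gate on the log2 scale with the prior, members at least 1.5-fold higher with dTAG-13 were set against all genes of the same gate. Cdh1, Epcam and Cdh13 made 3 of 6 in Sox2+ cells (2.66% of genes), in T+ cells (5.35%) and in Tbx6+ cells (6.29%). Cdh1 and Epcam made 2 of the 5 members with at least 10 UMIs in Meox1+ cells (2.58%), where cells with Cdh1 and free RNA cannot be told apart. Cdh13 was the 1 member past this fold in Zfp42+ cells (1.57%), Sfn+ cells (3.9%) and Sox17+ cells (6.73%), although its ratio interval in Sox17+ cells included 1. Cdh13 kept this fold under all 8 alternative settings in Sox2+ cells and lost it under at least 1 in each other gate in which it had passed. It stood at 0.55 in T+ cells with edgeR TMM scaling, 0.53 in Zfp42+ and 0.53 in Sox17+ cells with a prior of 5 CPM, 0.47 in Sfn+ cells with a gate of 2 UMIs and 0.54 in Tbx6+ cells gated without thinning. Cdh2 in Sox2+ cells was, among members with at least 10 UMIs, the only one at least 1.5-fold lower in any gate, against 1.27% of genes there. No such member was lower by that fold in Zfp42+ (0.825% of genes), Sfn+ (3.72%), Sox17+ (6.23%), T+ (1.14%), Tbx6+ (4.56%) or Meox1+ cells (1.41%).

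Markers of other cell types differed between the libraries in the same gates. The summed level of 7 non-neural ectoderm markers, Sfn, Krt8, Krt18, Dlx5, Grhl3, Tfap2a and Dlx3, was 489 CPM with dTAG-13 and 163 CPM untreated over whole libraries, and all 7 were at least 1.5-fold higher. It was 440.0 CPM with dTAG-13 and 133 CPM untreated in Sox2+ cells (7 of 7 higher), and 588 CPM with dTAG-13 and 216 CPM untreated in T+ cells (5 of 7). It was 225 CPM with dTAG-13 and 78.1 CPM untreated in Tbx6+ cells (6 of 7), and 121 CPM with dTAG-13 and 50.2 CPM untreated in Meox1+ cells (5 of 7). The list was higher as well in gates with smaller Cdh1 ratios. It was 214 CPM with dTAG-13 and 131 CPM untreated in Zfp42+ cells (3 of 7). In Sfn+ cells it was 828 CPM with dTAG-13 and 519 CPM untreated (4 of the 6 besides Sfn). In Sox17+ cells it was 1136 CPM with dTAG-13 and 1063 CPM untreated (4 of 7), where 3 of the 7 had no UMI untreated. Pluripotent and endoderm markers, which belong to cells rich in Cdh1 and Epcam, were also higher in mesodermal gates. In T+ cells pluripotent markers summed to 159.6 CPM with dTAG-13 and 95.01 CPM untreated (7 of 7), and endoderm markers to 269 CPM with dTAG-13 and 126 CPM untreated (5 of 8). In Tbx6+ cells pluripotent markers summed to 97.4 CPM with dTAG-13 and 30.9 CPM untreated (6 of 7), and endoderm markers to 88.8 CPM with dTAG-13 and 25.9 CPM untreated (7 of 8). In Meox1+ cells pluripotent markers summed to 82.2 CPM with dTAG-13 and 49.0 CPM untreated (3 of 7), and endoderm markers to 91.7 CPM with dTAG-13 and 45.6 CPM untreated (4 of 8). Untreated, 1 endoderm marker in T+ cells, 2 in Tbx6+ cells and 1 in Meox1+ cells had no UMI. In Tbx6+ cells 1 pluripotent marker untreated and 1 endoderm marker with dTAG-13 had none. Mesodermal markers went both ways. Presomitic markers summed to 682 CPM with dTAG-13 and 904 CPM untreated in T+ cells, and 798 and 1178 CPM in Tbx6+ cells. Somite markers summed to 513 CPM with dTAG-13 and 276 CPM untreated in Tbx6+ cells. They were 68.6 and 78.5 CPM in T+ cells, and 735 and 794 CPM in Meox1+ cells. In Sox2+ cells the 6 other neural markers summed to 63.1 CPM with dTAG-13 and 140.3 CPM untreated, with 4 of 6 at least 1.5-fold lower. In Sfn+ cells the 7 pluripotent markers summed to 773 CPM with dTAG-13 and 1935 CPM untreated, with 7 of 7 lower. Different mixes of cells in a gate and different levels of these markers within cells cannot be told apart here. The part of either in the cadherin differences was not tested.

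Single cells were then scored for at least 1 UMI after thinning to 5000 UMIs, which left 6607 dTAG-13 and 6144 untreated cells; 81 dTAG-13 and 87 untreated cells were shallower and were left out. Cdh1 was detected in 19.8% of dTAG-13 cells (18.9 to 20.8) and 8.63% of untreated cells (7.94 to 9.36). Epcam was detected in 72.9% of dTAG-13 cells (71.8 to 73.9) and 43.6% of untreated cells (42.4 to 44.9). Cdh2 was detected in 22.1% of dTAG-13 cells (21.1 to 23.1) and 34.2% of untreated cells (33.0 to 35.4). The order of Cdh1 and Cdh2 by cells was the same as by level in both libraries. Without thinning the Cdh1 shares were 50.2% with dTAG-13 and 24.97% untreated, and the Cdh2 shares 56.5% with dTAG-13 and 73.5% untreated. For the scarcer members the thinned shares were 5.96% with dTAG-13 and 7.78% untreated for Cdh11, 5.54% with dTAG-13 and 2.86% untreated for Cdh13, and 1.24% with dTAG-13 and 0.814% untreated for Cdh3.

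Free RNA in droplets can give UMIs in cells that do not express a gene, so the shares were set beside those of cells known to lack it. In Meox1+ cells, which as somite cells should lack Cdh1, 5.16% of dTAG-13 cells (3.43 to 7.42) and 2.13% of untreated cells (1.22 to 3.43) had a Cdh1 UMI. Their median depths before thinning were 20420 UMIs with dTAG-13 and 20044 UMIs untreated. In Zfp42+ cells, which are known for E-cadherin and not N-cadherin, 6.098% of dTAG-13 cells (4.48 to 8.07) and 8.88% of untreated cells (6.55 to 11.7) had a Cdh2 UMI, at median depths of 25065 UMIs with dTAG-13 and 24187 UMIs untreated. At shares of this height cells that express the gene and free RNA cannot be told apart. The Cdh1 ratio of Meox1+ cells and the Cdh2 ratio of Zfp42+ cells are given with that limit. These UMIs were not spread evenly over cells. Cdh1 was more frequent in Meox1+ cells with an Epcam UMI, and Cdh2 in Zfp42+ cells with a Zeb2 UMI, as given below. In cells that passed the Meox1 gate only, Cdh1 stood at 15.7% of its whole-library level with dTAG-13 and 13.1% untreated, and Epcam at 13.6% with dTAG-13 and 12.7% untreated. The pluripotency gene Dppa5a stood there at 4.83% of its library level with dTAG-13 and 5.53% untreated, and the keratin gene Krt8 at 15.4% with dTAG-13 and 22.9% untreated. Whether free RNA gives these levels was not tested.

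**Figure D2:**
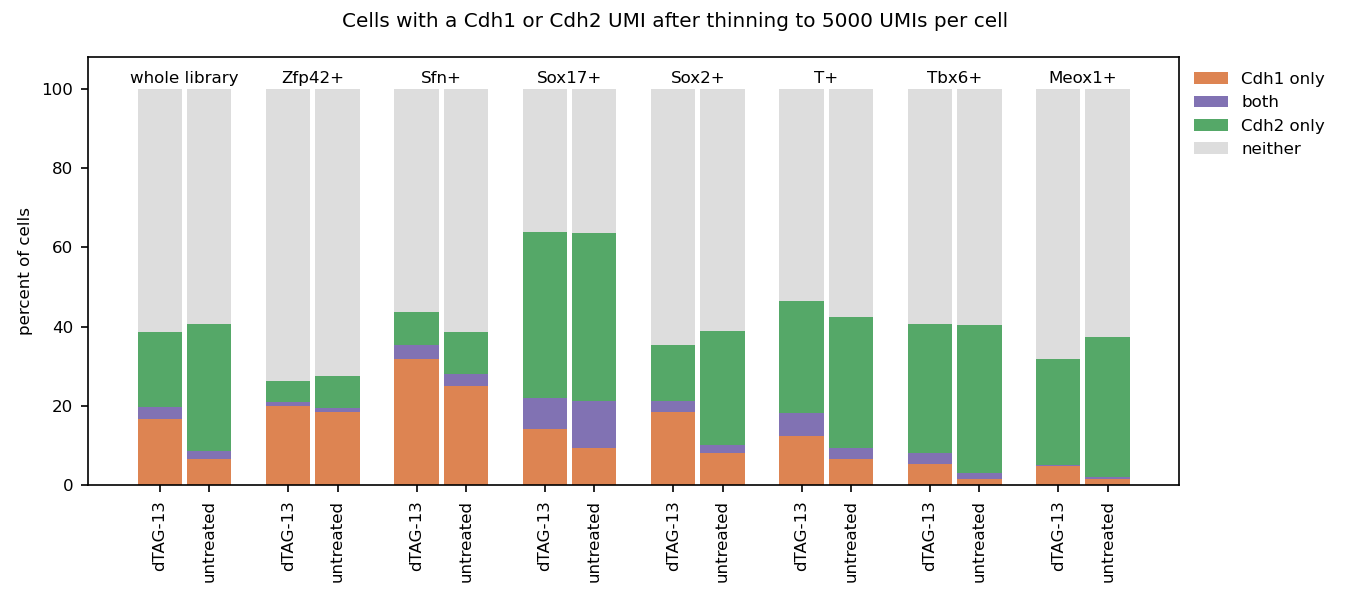
Percent of cells (vertical axis, from 0) with a Cdh1 UMI only (orange), UMIs of both (purple), a Cdh2 UMI only (green) or neither (grey) after thinning to 5000 UMIs, with the dTAG-13 bar left of the untreated bar in whole libraries and each gate. Cells with Cdh1 only make up 16.6% of the dTAG-13 library and 6.51% of the untreated library, and cells with both stay few in each gate other than Sox17+.

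Cells with UMIs of both Cdh1 and Cdh2 were few after thinning. They made up 3.27% of dTAG-13 cells (216 cells, 2.85 to 3.73) and 2.12% of untreated cells (130 cells, 1.77 to 2.51). Cdh1 without Cdh2 was found in 16.6% of dTAG-13 cells (15.7 to 17.5) and 6.51% of untreated cells (5.91 to 7.16), and Cdh2 without Cdh1 in 18.9% of dTAG-13 cells (17.9 to 19.8) and 32.0% of untreated cells (30.9 to 33.2). At this depth the difference between libraries lay mainly in cells with 1 of the 2 transcripts. Without thinning, 24.7% of the same dTAG-13 cells and 15.3% of the same untreated cells held both, so this reading depends on depth. The thinned share with both was 0.745 times the product of the separate shares with dTAG-13 and 0.718 times untreated. Without thinning the products were 28.3% with dTAG-13 and 18.4% untreated. When a cell was counted from 2 UMIs of each gene, the difference in the share with both turned to -0.0197 points, against 1.15 points with 1 UMI, so its direction depends on that choice. Cells with both had median depths of 18934 UMIs with dTAG-13 and 18757 UMIs untreated, below those of the other states. Their median doublet scores were 0.0545 with dTAG-13 and 0.0584 untreated, against 0.0450 with dTAG-13 and 0.0479 untreated in cells with neither, and the part of doublets among them was not tested.

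By gate, cells with both transcripts were most frequent in Sox17+ cells, at 7.87% with dTAG-13 (3.84 to 14.0) and 11.8% untreated (5.79 to 20.6). In T+ cells they made up 5.69% with dTAG-13 (4.198 to 7.52) and 2.76% untreated (1.88 to 3.89), the gate in which the intervals of the libraries lay apart. In Meox1+ cells they made up 0.382% with dTAG-13 and 0.665% untreated, and in Zfp42+ cells 0.949% with dTAG-13 and 0.986% untreated. In the dTAG-13 library T+ cells, which include cells of the tail bud, had more cells with Cdh1, at 18.1% with dTAG-13 (15.5 to 20.9) and 9.25% untreated (7.62 to 11.1), while cells with Cdh2 were 34.0% with dTAG-13 (30.8 to 37.4) and 36.0% untreated (33.2 to 38.9), with overlapping intervals. In Sox2+ cells both shares differed, with Cdh1 in 21.1% of dTAG-13 and 10.0% of untreated cells and Cdh2 in 16.99% of dTAG-13 and 30.8% of untreated cells.

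Within each library Cdh1+ cells were less frequent where Cdh2 UMIs were more and more frequent where Epcam UMIs were more. With 0, 1, 2 and at least 3 Cdh2 UMIs it was 21.3%, 15.6%, 11.4% and 12.5% in the dTAG-13 library and 9.89%, 6.61%, 5.71% and 2.5% in the untreated library, where the last bins held 7 Cdh1+ cells of 56 with dTAG-13 and 3 of 120 untreated. With 0, 1 to 2, 3 to 5 and at least 6 Epcam UMIs it was 6.36%, 19.8%, 25.8% and 32.3% in the dTAG-13 library and 3.12%, 11.95%, 19.9% and 29.3% in the untreated library. In the bin of at least 6 Epcam UMIs the intervals overlapped, at 29.4 to 35.3 with dTAG-13 and 23.7 to 35.5 untreated. That bin held 992 dTAG-13 cells and 242 untreated cells. In Meox1+ cells Cdh1 was found in 18.6% of dTAG-13 and 16.2% of untreated cells with an Epcam UMI, and in 1.46% of dTAG-13 and 0.590% of untreated cells without one. The few Cdh1+ cells of this gate were thus mostly cells with Epcam. Cdh2 and Cdh11 were found together in 1.88% of dTAG-13 cells and 2.95% of untreated cells.

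**Figure D3:**
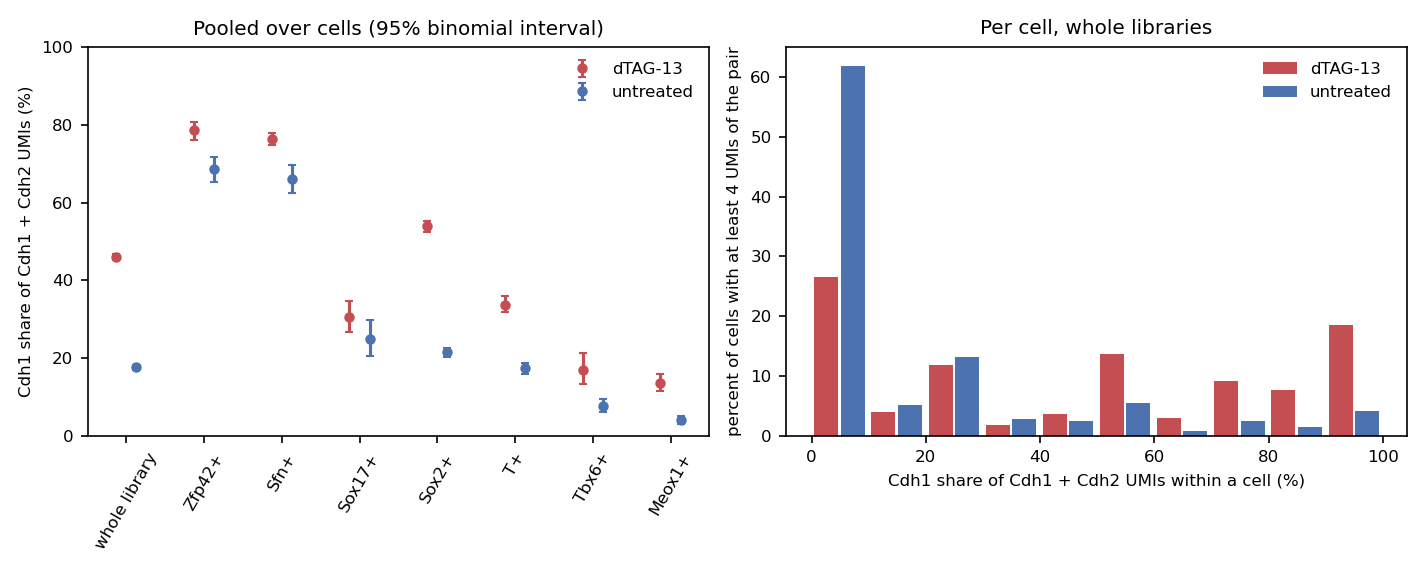
Left, Cdh1 UMIs as percent of Cdh1 plus Cdh2 UMIs pooled over the cells of each library and gate, dTAG-13 (red) left of untreated (blue), with 95% binomial intervals. Right, percent of cells (vertical axis, from 0) by their own Cdh1 share among cells with at least 4 UMIs of the pair; cells without Cdh1 dominate the untreated library, and the dTAG-13 library spreads over the whole axis.

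The balance of the pair was also read without any scaling between libraries, as Cdh1 UMIs over Cdh1 plus Cdh2 UMIs. This share was 46.1% with dTAG-13 (45.3 to 46.8) and 17.6% untreated (17.02 to 18.2). In Sox2+ cells it was 53.9% with dTAG-13 (52.5 to 55.3) and 21.5% untreated (20.4 to 22.6), and in T+ cells 33.8% with dTAG-13 (31.8 to 35.9) and 17.4% untreated (16.0 to 18.8). In Sox2+ cells Cdh1 was thus the more abundant of the pair with dTAG-13 and Cdh2 without it. Zfp42+ cells (78.5% with dTAG-13 and 68.6% untreated) and Sfn+ cells (76.4% with dTAG-13 and 66.1% untreated) were on the Cdh1 side in both libraries. Tbx6+ cells (17.03% with dTAG-13 and 7.77% untreated) and Meox1+ cells (13.6% with dTAG-13 and 4.08% untreated) were on the Cdh2 side in both. Sox17+ cells gave 30.6% with dTAG-13 (26.8 to 34.7) and 24.9% untreated (20.6 to 29.7), with overlapping intervals.

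Cell by cell, among 1499 dTAG-13 and 1470 untreated cells with at least 4 UMIs of the pair, a Cdh1 share of at most 0.2 was found in 33.8% of dTAG-13 and 71.2% of untreated cells. A share of at least 0.8 was found in 26.2% of dTAG-13 cells (24.0 to 28.5) and 5.65% of untreated cells (4.52 to 6.95). The remaining 40.0% of dTAG-13 and 23.1% of untreated cells were mixed. A cell with 4 UMIs of the pair counts as mixed unless all 4 are of 1 gene. Had each cell held the pooled share of its library, 80.5% of dTAG-13 and 39.0% of untreated cells would be mixed. The mixed shares therefore do not by themselves compare cells that express both genes. With dTAG-13 cells of each kind were thus present in quantity, while most of these untreated cells were on the Cdh2 side.

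Cdh1 and Cdh2 also differed between cells with and without a UMI of Zeb2 in each library. Cdh1 was found in 16.4% of Zeb2+ cells (14.9 to 18.0) and 21.5% of Zeb2-negative cells (20.3 to 22.7) with dTAG-13, and in 5.64% of Zeb2+ cells (4.58 to 6.86) and 9.74% of Zeb2-negative cells (8.89 to 10.6) untreated. Cdh2 was found in 27.0% of Zeb2+ and 19.7% of Zeb2-negative cells with dTAG-13, and in 39.9% of Zeb2+ and 32.0% of Zeb2-negative cells untreated. Over whole libraries, cells with the Zeb2 transcript were therefore less often Cdh1+ and more often Cdh2+ in both libraries. The cause of this was not tested. Within gates the Cdh2 intervals lay apart in both libraries in Sox2+ and in Zfp42+ cells. In Sox2+ cells Cdh2 was found in 25.5% of Zeb2+ (22.5 to 28.7) and 12.7% of Zeb2-negative cells (11.1 to 14.5) with dTAG-13. Untreated, it was found in 38.5% of Zeb2+ (34.7 to 42.4) and 27.8% of Zeb2-negative cells (25.7 to 30.1). In Zfp42+ cells the shares were 19.8% of 81 Zeb2+ cells (11.7 to 30.1) and 4.41% of Zeb2-negative cells (2.98 to 6.28) with dTAG-13. Untreated, they were 26.3% of 38 Zeb2+ cells (13.4 to 43.1) and 7.46% of Zeb2-negative cells (5.25 to 10.2). For Cdh1 the intervals of Zeb2+ and Zeb2-negative cells overlapped in each gate of both libraries, and in Zfp42+ cells with dTAG-13 the Zeb2+ share was the higher, at 24.7% of Zeb2+ (15.8 to 35.5) and 20.5% of Zeb2-negative cells (17.5 to 23.8).

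**Figure D4:**
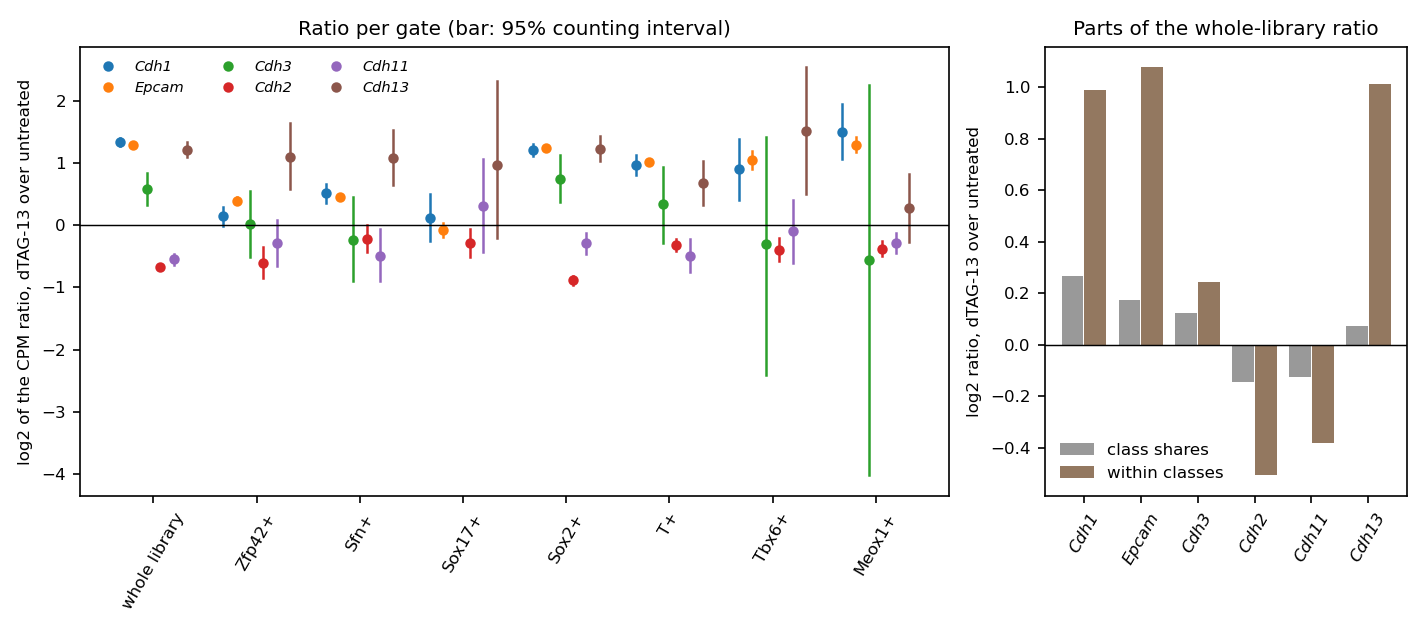
Left, log2 of the CPM ratio of dTAG-13 over untreated for each member in whole libraries and gates, with 95% counting intervals; values above 0 are higher with dTAG-13. Right, the whole-library log2 ratio with a prior of 1 CPM split into a part from class shares (grey) and a part within classes (brown); for each member the within-class bar is the larger, as for Cdh1 at 0.99 against 0.27.

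To separate cell numbers from levels, cells were split into 12 disjoint classes by which gates they passed, 10 of them with at least 50 cells in each library. Within classes Epcam was higher with dTAG-13 by its interval in 10 of 10, Cdh1 in 7, Cdh13 in 5 and Cdh3 in 1, while Cdh2 was lower in 9, all but cells with Sox17 only, and Cdh11 in 7. With the prior, the class of cells with Sox2 only had the largest Epcam and Cdh1 log2 ratios of the 10 classes. There Cdh1 stood at 45.3 CPM with dTAG-13 and 15.0 CPM untreated, a CPM ratio of 3.02 (2.73 to 3.36), and Epcam at 565 CPM with dTAG-13 and 190 CPM untreated, a ratio of 2.98 (2.90 to 3.07). Cdh2 stood at 59.4 CPM with dTAG-13 and 95.8 CPM untreated in this class (0.620, 0.584 to 0.657). In cells with Meox1 only the Cdh1 CPM ratio, without the prior, was as high at 3.01 (1.94 to 4.74), on 66 UMIs with dTAG-13 and 32 UMIs untreated. Cells that passed none of the 7 gates held 41.6 CPM of Cdh1 with dTAG-13 and 14.9 CPM untreated (2.78, 2.55 to 3.05). In cells with Tbx6 only, Cdh1 stood at 6.61 CPM with dTAG-13 and 3.75 CPM untreated, and a difference was not detectable (1.76, 0.731 to 4.10). The remaining classes in which the Cdh1 interval included 1 were cells with Zfp42 only and cells with Sox17 only.

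When class shares varied and class levels were held at their mean, the log2 ratio was 0.27 for Cdh1, 0.17 for Epcam, 0.12 for Cdh3, 0.07 for Cdh13, -0.13 for Cdh11 and -0.14 for Cdh2. When levels within classes varied and shares were held, it was 0.99 for Cdh1, 1.08 for Epcam, 0.24 for Cdh3, 1.01 for Cdh13, -0.38 for Cdh11 and -0.51 for Cdh2. The part within classes was the larger for each member. These classes are coarse. In the Sox2 only class non-neural ectoderm markers summed to 384 CPM with dTAG-13 and 99.7 CPM untreated. A difference in levels within cells and a different mix of cells inside a class cannot be told apart here.

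**Figure D5:**
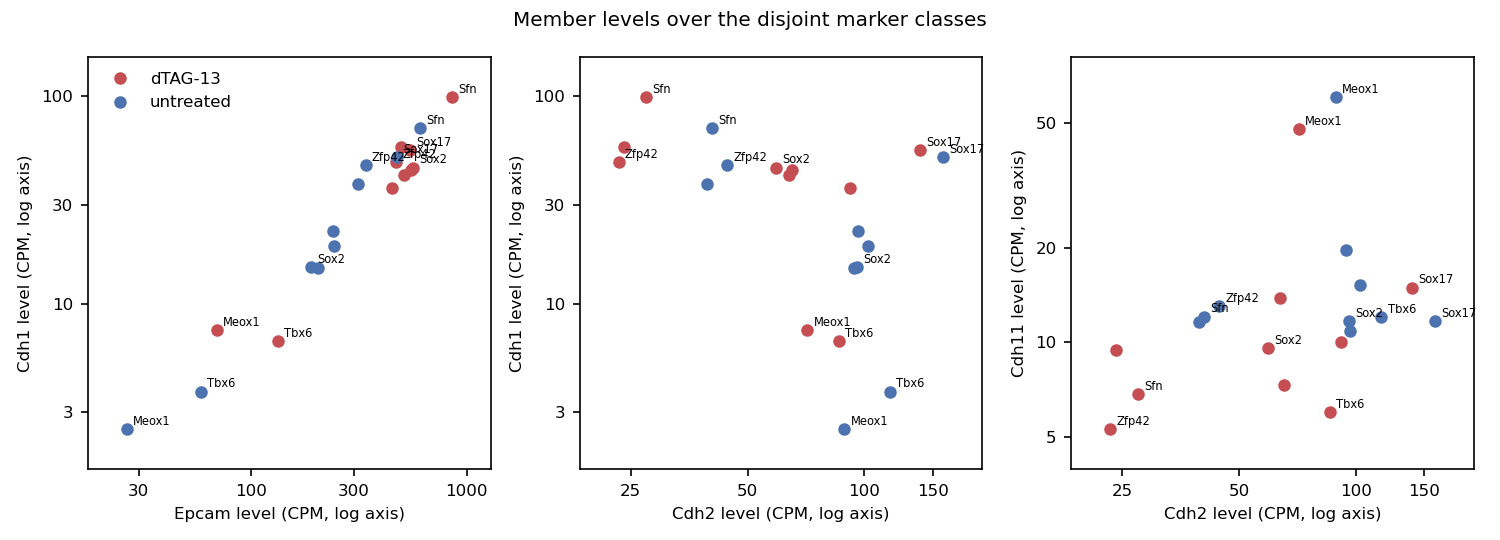
Levels in CPM on log axes of 2 members at a time over the 10 disjoint classes in the dTAG-13 (red) and untreated (blue) libraries; 6 classes defined by 1 gate only are labelled by that gene. Cdh1 and Epcam fall along 1 line (r = 0.97 over 20 points), Cdh1 and Cdh2 scatter with Sox17 cells high in both, and Cdh11 is set apart by Meox1 cells.

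Over these 20 points, each class in each library, Pearson correlations of log2 levels described which genes ran parallel to the members. The points share libraries and depth and are no independent samples, and 7111 genes were compared. Cdh1 was most like Epcam (r = 0.97), the kinesin light chain gene Klc3 (0.97), the kinase gene Tnk1 (0.96), the glucose transporter gene Slc2a3 (0.95) and the nuclease gene Dnase2a (0.94). Epcam was most like Cdh1, Klc3, the epithelial splicing regulator gene Esrp1 (0.95), Slc2a3 and Dnase2a, so both lists held Klc3, Slc2a3 and Dnase2a. Cdh2 was most like Thoc2 (0.93), the transcription factor gene Sox4 (0.92), Spcs2 (0.92), Golm1 (0.90) and Ccnjl (0.89). Cdh11 was most like Bhlhb9 (0.84), the ribosomal protein gene Rpl5 (0.82), the nuclear receptor gene Nr2f2 (0.82), Gas1 (0.82) and Dmrt2 (0.81). Cdh13 was most like Lamtor5 (0.87), Snf8 (0.86), the claudin gene Cldn3 (0.85), the kinase gene Pim2 (0.84) and Eapp (0.84), and Cdh3 was most like Smagp (0.88), the receptor gene F2rl1 (0.87), Limk2 (0.86), Rab3ip (0.85) and Nrk (0.85). Among the members, Cdh1 gave r = 0.74 with Cdh3 and 0.74 with Cdh13, -0.48 with Cdh2 and -0.57 with Cdh11, and Cdh2 gave 0.35 with Cdh11. The opposition of Cdh1 and Cdh2 over classes was therefore weaker than the parallel of Cdh1 and Epcam.

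Genes of the same pathway were counted over whole libraries by the 1.5-fold rule, and values in parentheses are their log2 ratios with the prior. Of 12 activators of epithelial genes, 9 were higher with dTAG-13 (2.32% of all genes) and 0 lower, with a median log2 ratio of 0.98, against 0.02 for all genes. Among them Esrp1 stood at 43.2 CPM with dTAG-13 and 14.4 CPM untreated (1.52), the grainyhead factor Grhl2, a known activator of Cdh1, at 13.9 CPM with dTAG-13 and 4.63 CPM untreated (1.40), while the endoderm factor Foxa2 (1.04) and Grhl3 (1.00) were higher too. Of 11 repressors of E-cadherin, 0 were higher and 2 lower (0.832% of all genes), with a median of -0.22. Zeb1, the other ZEB gene, stood at 20.1 CPM with dTAG-13 and 31.4 CPM untreated (-0.62) and was past the fold, as was Snai1 at 4.02 CPM with dTAG-13 and 6.98 CPM untreated (-0.67). The mesodermal repressors Twist1 (-0.42) and Foxc2 (-0.49) were lower by less, and Zeb2 stood at 0.47.

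Of 12 partners and proteases of Epcam, 4 were higher (2.32% of all genes) and 0 lower, with a median of 0.45. Cldn7, a claudin that binds Epcam, stood at 101.3 CPM with dTAG-13 and 19.0 CPM untreated (2.35). The membrane protease gene Prss8 stood at 12.9 CPM with dTAG-13 and 3.96 CPM untreated (1.48), its inhibitor gene Spint1 at 28.1 CPM with dTAG-13 and 13.4 CPM untreated (1.01), and the protease gene St14 at 18.1 CPM with dTAG-13 and 10.9 CPM untreated (0.68). Catenins join cadherins to actin. Of 17 catenins and adherens junction partners, 2 were higher (2.32% of all genes) and 0 lower, with a median of 0.20. These were plakoglobin (Jup), which binds cadherins of desmosomes as well, at 25.3 CPM with dTAG-13 and 10.6 CPM untreated (1.18), and Nectin2, at 54.4 CPM with dTAG-13 and 29.2 CPM untreated (0.88). Ajuba (0.47) and Lima1 (0.31) were next, while beta-catenin (Ctnnb1), which binds Cdh1 and Cdh2 alike, stood at 187 CPM with dTAG-13 and 175 CPM untreated (0.10).

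Of 25 other cadherins and protocadherins, 22 had at least 10 UMIs; 1 was higher (2.32% of all genes), 1 was lower (0.832%), and their median was 0.05, near that of all genes. Pcdh1 was higher, at 16.8 CPM with dTAG-13 and 10.8 CPM untreated (0.60), and Cdh6, a cadherin of kidney and neural crest, was lower, at 3.19 CPM with dTAG-13 and 7.75 CPM untreated (-1.06). Pcdh19 (-0.47) and Pcdh7 (0.40) stood within the fold.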

How the data were processed

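The authors deposited raw UMI count matrices per gene and cell barcode, made with Cell Ranger 6.1.2 on mm10 per the file headers and the submitters' processing notes. Libraries were 10x 3' v3.1 per the labels' protocols. The totals were 176677276 UMIs in 7873 barcodes for dTAG-13 and 158002807 UMIs in 7276 barcodes for untreated. How reads of overlapping genes or opposite strands were assigned is not stated in these sources.

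Barcodes with under 1000 genes or over 10% mitochondrial UMIs were removed (693 dTAG-13 and 630 untreated). The automatic Scrublet threshold in scanpy 1.11.5 marked 0 dTAG-13 and 1 untreated barcode and so had not worked. The barcodes with the highest scores were removed instead, 0.8% per 1000 barcodes (496 dTAG-13 and 424 untreated). Levels are counts summed over cells, in CPM, and all genes with at least 10 UMIs entered the calls. Thinned cells had 5000 UMIs drawn without replacement. Gene positions came from the GRCm38 annotation. The 6 members, the gates and all lists were chosen with earlier results of these data known. Named genes were all members in all gates, the 5 genes most like each member over classes with at least 50 cells (at least 20 CPM at 1 point, predicted genes passed over), and up to 4 genes per list with the largest ratio among those with at least 10 CPM. Cdh6 and Snai1 were named outside this rule after their values were seen, as was Ctnnb1. Intervals were computed with scipy 1.17.1, exact binomial for shares, exact Poisson for levels and exact conditional for ratios of counts, and the counting code was tested on simulated data. Alternatives, with scaling factors from edgeR 4.0.16 and DESeq2 1.42.0 and no test by either, are given in the closing section.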

Additional observations from a re-analysis of the deposited data

How the results depend on the processing

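With 1 library per group, none of these differences has a replicate check. No paired analysis was possible because each group has a single library and no result comes from a test. Under the alternatives, 37 values of the main results differed from the reported one by less than its counting interval (1.5 times, for counts of genes), 17 moved further and 1 changed direction. Scaling by edgeR TMM gave log2 ratios of 1.24 for Epcam and -0.70 for Cdh2, and DESeq2 size factors gave 1.23 for Epcam and -0.70 for Cdh2. The log2 shift of the whole-library scaling was -0.04 with edgeR TMM and -0.05 with DESeq2 size factors. A prior of 5 CPM gave 1.14 for Cdh1, -0.41 for Cdh11 and 0.76 for Cdh13, with 158 genes at least 1.5-fold higher and 62 lower, against 451 and 162 with the prior of 1 CPM. The difference in the share of cells with Cdh1, dTAG-13 minus untreated, was 11.2 points, and it was 18.3 points with cells thinned to 10000 UMIs, 25.1 without thinning and 2.68 when counted from 2 UMIs. For Cdh2 the difference was -12.0 points, against -16.1, -16.8 and -4.23 under the same settings. For cells with both it was 1.15 points, against 3.57, 9.32 and -0.0197, so the direction for cells with both held under the depth settings and not from 2 UMIs. Within gates, 314 values stayed within the counting interval, 55 moved beyond it and 2 whose interval had excluded 0 changed direction, both with gates of at least 2 UMIs: Cdh2 in Sox17+ cells (0.14, against -0.29) and Cdh13 in Tbx6+ cells (-0.21, against 1.15). The cause of these changes was not tested. Depth limits Cdh3 in most gates, Cdh13 in Sox17+ and Tbx6+ cells and all shares of cells with both transcripts.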

Other observations

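The classes with 1 gate only held different shares of each member's UMIs. Cells with Sfn only supplied 17.3% of Cdh1 UMIs with dTAG-13 and 6.85% untreated, from 8.23% of all UMIs with dTAG-13 and 1.84% untreated. They supplied 13.8% of Epcam UMIs with dTAG-13 and 5.36% untreated. Cells with Meox1 only supplied 0.921% of Cdh1 UMIs with dTAG-13 and 1.22% untreated, and 7.54% of Cdh2 UMIs with dTAG-13 and 9.35% untreated. They held 5.86% of all UMIs with dTAG-13 and 9.26% untreated. Cells with Sox17 only supplied 3.78% of Cdh2 UMIs with dTAG-13 and 1.89% untreated, from 1.50% of all UMIs with dTAG-13 and 1.04% untreated. Cells that passed none of the 7 gates were the largest source of Cdh2, at 39.1% with dTAG-13 and 32.7% untreated, and of Epcam, at 33.9% with dTAG-13 and 29.8% untreated. This class also held 33.9% of all UMIs with dTAG-13 and 30.5% untreated, so its Epcam shares were close to its share of all UMIs.

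Over the same 20 points, the genes that ran most opposite to Cdh1 were the splicing factor gene Prpf19 (r = -0.93), the centrosomal gene Cep170 (-0.92), the methylthioadenosine phosphorylase gene Mtap (-0.92), the translation factor gene Eif4e (-0.91) and the intermediate filament gene Synm (-0.91), ahead of Cdh2 at -0.48 and Cdh11 at -0.57. The points share libraries and depth.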
